A study of Mus musculus with 20 samples.

Results

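The genes described here encode 36 proteins of the cardiac sarcomere and of the structures that anchor it: thin and thick filaments, the titin filament, the M-band, the Z-disc, desmin and its chaperone, and the Xin proteins. The list was given by gene name and not by a measured value, although earlier results of these data were known when it was drawn up. Each gene was read from the probe with the brightest mean heart signal. All 36 had a probe among the 27670 gene names on the array, and all 36 were among the 14556 genes tested, each with a heart signal well above background on 20 of 20 arrays with 0 saturated spots. In all, 74 probes carry these names, 15 genes having 1 probe and 21 having several. Xirp1 and Xirp2 stand under the older symbols Cmya1 and Cmya3 in the files.

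The sarcomere is the contractile unit of striated muscle, in which myosin thick filaments pull on actin thin filaments. Thin filaments are anchored in the Z-disc by alpha-actinin, thick filaments are held together at the M-band by myomesins, and titin spans from Z-disc to M-band as a molecular spring. MuRF1, the product of Trim63, is a muscle ubiquitin ligase that binds titin at the M-band, and fenofibrate activates the nuclear receptor PPAR alpha. Titin, troponin I and myosin-binding protein C are among the sarcomere proteins linked to MuRF1 in muscle.

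Heart RNA of mice with an intact MuRF1 gene (MuRF1 +/+) and of mice without it (MuRF1 -/-) was hybridised on 20 arrays, 1 heart on each, against 1 common RNA pool, made from whole newborn C57BL/6 pups (postnatal day 1). Of each genotype, 3 hearts came from mice on chow for 8 weeks, 4 from mice on chow with 0.05% fenofibrate (w/w) for 3 weeks and 3 from mice on that diet for 8 weeks. The 3-week hearts therefore have no chow control of the same duration, and the 3-week and 8-week responses of a genotype share their chow hearts. The series text calls the groups strain-matched and 3 to 8 weeks old, while in the sample labels the weeks are the time on diet. The background strain of the hearts, the sex of the mice and the cells in which MuRF1 is missing are not stated in the labels, and MuRF1 -/- hearts lack the gene on every diet. All values are log2 ratios of heart (Cy5) over the pup pool (Cy3), so a level of 1 is a 2-fold higher signal than in the pool. The pool holds skeletal muscle, so a level also depends on the signal of that muscle in the pool. Because the dyes were not swapped, a level includes a dye effect, whereas a difference between groups does not.

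Trim63 was low in every MuRF1 -/- heart, with group means of -1.01 on chow, -0.95 at 3 weeks and -0.98 at 8 weeks, against 2.49, 2.57 and 2.02 in MuRF1 +/+. Sex-linked transcripts differed with diet: the mean of Ddx3y, on the Y chromosome, was 1.49 (+/+) and 1.51 (-/-) on chow, -0.70 and -0.81 at 3 weeks, and -0.60 and 0.70 at 8 weeks. Diet and sex cannot be told apart in the comparisons with chow other than that at 8 weeks in MuRF1 -/-, whose hearts ranged from -0.68 to 1.47 for Ddx3y. Between 8 and 3 weeks in MuRF1 -/-, 3 of 4 tested sex-linked genes were higher and 1 lower, against 0 and 1 in MuRF1 +/+. Time on diet and sex cannot be told apart in that MuRF1 -/- comparison either. The mean of 8 endothelial markers was 0.23 and 0.27 on chow, 0.62 and 0.69 at 3 weeks, and 0.74 and 0.13 at 8 weeks, and that of 8 fibroblast markers was -2.58 and -2.44, -2.02 and -2.02, and -2.15 and -2.76. Of the endothelial markers 2, 3, 2 and 0 rose against chow (+/+ at 3 and 8 weeks, -/- at 3 and 8 weeks), and of the fibroblast markers 4, 2, 2 and 0. The shares of all genes that rose were 12.0%, 5.26%, 14.2% and 0.852%. In the same order 2, 2, 2 and 0 of 6 tested smooth muscle markers fell, and 1, 0, 2 and 1 of 6 tested leukocyte markers. None of these rose past the threshold, and the shares of all genes that fell were 12.3%, 8.72%, 12.1% and 0.982%. The mean of 8 cardiomyocyte markers was 2.94 and 2.89 on chow, 2.94 and 2.82 at 3 weeks, and 2.50 and 2.70 at 8 weeks. Of these 8, 2 rose at 3 weeks in MuRF1 +/+ and 1 in MuRF1 -/-, where 12.0% and 14.2% of all genes rose. At 8 weeks in MuRF1 +/+ 2 of the 8 fell, where 8.72% of all genes fell. The part that these shifts have in the results was not tested, and in whole hearts fewer cells of a type cannot be told apart from less RNA per cell. On the first 2 principal components of all genes (43.9% and 22.1% of the variance) 2 arrays lay away from the rest: 8-week MuRF1 +/+ replicate 2, with an endothelial mean of 1.36, and 3-week MuRF1 -/- replicate 4, with 0.65. Atrial markers averaged -1.77 and -1.73 on chow, -1.07 and -1.16 at 3 weeks and -1.42 at 8 weeks in MuRF1 +/+ (-1.59 to -1.41 on the 8-week MuRF1 -/- arrays), with every 3-week MuRF1 +/+ array above every chow array of that genotype. They averaged -0.16 on the latter array and -1.68 to -1.18 on the other arrays of its group.

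Windows around the transcription start (250 bases before to 50 after, RefSeq, GRCm38.p6) were read for 29 of the 36 genes, 42 windows in all; Myom2, Tcap, Myoz1, Myot, Cryab, Xirp1 and Nexn were not matched. Windows are shown for 7 genes with calls that rose or fell, chosen after their values were seen, so that both directions can be compared. Both strands were searched for the CArG box bound by SRF, for the MEF2 site, for M-CAT (CATTCC), which TEAD factors bind, and for a direct repeat of AGGTCA spaced by 1 base, which PPAR binds with RXR. A stretch may match both the CArG box and the MEF2 site; in the windows printed here no matches overlap. Matches are in capitals, and a match is only a run of letters. First come 3 genes that rose at 3 weeks in MuRF1 +/+ hearts: Ttn (chr2:76982498-76982797, minus strand), Pdlim3 (chr8:45885237-45885536, plus strand) and Synpo2l (chr14:20668305-20668604, minus strand).
Ttn: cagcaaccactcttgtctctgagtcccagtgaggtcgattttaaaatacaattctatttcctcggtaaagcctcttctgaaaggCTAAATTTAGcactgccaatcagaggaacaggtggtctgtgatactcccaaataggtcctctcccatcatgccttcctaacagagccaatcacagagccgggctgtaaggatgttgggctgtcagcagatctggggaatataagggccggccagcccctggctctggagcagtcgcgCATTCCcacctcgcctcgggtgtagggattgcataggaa
Pdlim3: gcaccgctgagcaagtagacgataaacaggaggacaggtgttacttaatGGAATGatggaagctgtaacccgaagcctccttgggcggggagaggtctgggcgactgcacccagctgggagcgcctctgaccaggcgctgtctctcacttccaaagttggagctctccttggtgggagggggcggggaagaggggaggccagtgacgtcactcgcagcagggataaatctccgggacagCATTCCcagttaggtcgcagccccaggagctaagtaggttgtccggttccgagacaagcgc
Synpo2l: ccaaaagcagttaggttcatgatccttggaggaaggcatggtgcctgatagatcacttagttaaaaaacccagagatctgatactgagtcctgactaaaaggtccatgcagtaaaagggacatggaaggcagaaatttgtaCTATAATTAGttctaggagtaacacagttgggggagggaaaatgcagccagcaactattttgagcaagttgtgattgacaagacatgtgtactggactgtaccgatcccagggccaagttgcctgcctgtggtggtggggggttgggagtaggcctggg
Next are 3 genes that fell in the same hearts, Actc1 (chr2:114052826-114053125, minus strand), Des (chr1:75360042-75360341, plus strand) and Tmod1 (chr4:46038972-46039271, plus strand), followed by Fhl2 (chr1:43196712-43197011, minus strand), which was lower at 8 weeks.
Actc1: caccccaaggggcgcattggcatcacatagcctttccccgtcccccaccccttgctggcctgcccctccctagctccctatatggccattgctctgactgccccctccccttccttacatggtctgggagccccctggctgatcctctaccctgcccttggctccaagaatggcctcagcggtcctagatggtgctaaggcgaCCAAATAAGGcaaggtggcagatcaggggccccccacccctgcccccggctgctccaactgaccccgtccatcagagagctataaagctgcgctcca
Des: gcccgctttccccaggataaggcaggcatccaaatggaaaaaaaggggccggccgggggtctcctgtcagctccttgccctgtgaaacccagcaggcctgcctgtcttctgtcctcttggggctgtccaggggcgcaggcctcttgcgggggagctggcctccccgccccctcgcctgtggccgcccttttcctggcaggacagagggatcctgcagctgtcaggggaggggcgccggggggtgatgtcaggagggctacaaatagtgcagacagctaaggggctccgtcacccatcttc
Tmod1: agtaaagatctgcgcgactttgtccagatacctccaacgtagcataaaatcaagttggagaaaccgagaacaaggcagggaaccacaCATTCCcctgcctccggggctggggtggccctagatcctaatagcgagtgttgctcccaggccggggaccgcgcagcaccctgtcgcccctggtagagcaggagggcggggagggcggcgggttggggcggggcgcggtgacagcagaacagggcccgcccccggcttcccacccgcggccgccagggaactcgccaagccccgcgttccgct
Fhl2: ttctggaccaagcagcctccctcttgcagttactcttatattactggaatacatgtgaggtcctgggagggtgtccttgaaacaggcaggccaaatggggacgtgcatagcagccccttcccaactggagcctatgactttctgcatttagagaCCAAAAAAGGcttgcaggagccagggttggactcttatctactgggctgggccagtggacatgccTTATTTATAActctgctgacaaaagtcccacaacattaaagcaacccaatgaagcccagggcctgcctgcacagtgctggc

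The CArG box starts at position -47 from the start site of Actc1 and at -96 in Fhl2. MEF2 sites start at -166 in Ttn, -109 in Synpo2l and -31 in Fhl2. M-CAT starts at 11 in Ttn, -163 in Tmod1, and -201 and -11 in Pdlim3. The window of Des holds none of these letters. Of the 42 windows of these genes, 9 held a CArG box, 7 a MEF2 site, 10 an M-CAT and 0 the direct repeat; several windows belong to 1 gene, and the genes were 7, 6, 9 and 0 of 29. Of all 32851 windows of this length in the table, 1.63% hold a CArG box, 3.19% a MEF2 site, 14.7% an M-CAT and 0.0396% the direct repeat. Genes that rose and genes that fell are both among those with a CArG box or MEF2 site, as Ttn and Actc1 show.

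After fenofibrate, sarcomere genes were both higher and lower than on chow, in both genotypes. After 3 weeks in MuRF1 +/+ hearts, 6 of the 36 genes rose and 4 fell, against 24.3% of all tested genes past the threshold in either direction, 12.0% higher and 12.3% lower (limma, Benjamini-Hochberg adjusted p under 0.05 over all genes). After 8 weeks 4 rose and 5 fell, against 14.0% of all genes (5.26% higher, 8.72% lower). In MuRF1 -/- hearts 6 rose and 5 fell after 3 weeks, with 26.4% of all genes past the threshold (14.2% higher, 12.1% lower), and 2 rose and 1 fell after 8 weeks, with 1.83% (0.852% higher, 0.982% lower). The shares of the 36 genes were 27.8%, 25%, 30.6% and 8.33%, those at 3 weeks being near the shares of all genes, and their median differences from chow were 0.15, 0.11, 0.07 and 0.03, with medians over all genes of 0.01, 0.03, -0.01 and -0.01. Between 8 and 3 weeks 1 gene was higher and 6 lower in MuRF1 +/+, where 17.4% of all genes passed (7.88% higher, 9.55% lower). In MuRF1 -/- 7 were higher and 5 lower, where 31.4% passed (13.5% higher, 18.0% lower) and time on diet and sex cannot be told apart. In all, 18 of the 36 genes passed in at least 1 of these 6 comparisons, 15 of them against chow, and 18 passed in none. The share of all genes over the same comparisons was not counted, so these numbers are not read as particular to the 36. Of the 52 passing pairs of a gene and a comparison, 49 had groups without overlap. The exceptions were Flnc at 3 weeks and Myot between 8 and 3 weeks in MuRF1 -/-, and Nexn between 8 and 3 weeks in MuRF1 +/+. These pairs were selected by p-value from the same arrays, so their lack of overlap is not separate evidence. Passing or not, 7 to 19 of the 36 genes had no overlap in these 6 comparisons, against 24.4% to 45.4% of all genes. Both the lowest values were between 8 and 3 weeks and both the highest at 3 weeks against chow, in MuRF1 +/+.

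These counts depended on single arrays. At 3 weeks in MuRF1 +/+ the count of 10 was 5 without chow replicate 1 and 6 without chow replicate 3, and it was 17 without the 2 arrays that stood apart, with 16.0%, 13.5% and 36.3% of all genes past the threshold. At 8 weeks the count of 9 was 20 without 8-week replicate 1, where 32.8% of all genes passed, and 6 without 8-week replicate 2 or, of chow, replicate 1 or 3. The 3-week count of 11 in MuRF1 -/- became 7 when 3-week replicate 4 was left out, and 5 or 6 when replicate 2 or 3 of chow was, with 27.3%, 18.9% and 16.0% of all genes. The 8-week count of 3 was 0 without 8-week replicate 1 or, of chow, replicate 1, 1 without 8-week replicate 2, and 5 without the 2 arrays that stood apart, with 0.660%, 0.632%, 0.845% and 6.32% of all genes. Between 8 and 3 weeks in MuRF1 +/+ the count of 7 was 11 without 8-week replicate 2 and 14 without both, with 18.8% and 23.9% of all genes. Fitted with only the groups compared, the 8-week calls in MuRF1 +/+ other than that of Actc1 were lost. With the slide as a block 16 of the 52 pairs lost their call, among them the 3 at 8 weeks in MuRF1 -/-. In MuRF1 +/+ these were also Actc1 and Ldb3 at 3 weeks, Nebl at 8 weeks, and Nebl and Nexn between 8 and 3 weeks. In MuRF1 -/- they were also Actn2, Ldb3, Smpx and Tmod1 at 3 weeks. Between 8 and 3 weeks there they were Ldb3, Myot, Smpx and Xirp1. Of the 52 passing pairs, 25 kept the call whichever single array of the groups compared was left out, and 14 kept it under every alternative tried. Leaving out single arrays of the other groups was not tried.

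**Figure D1:**
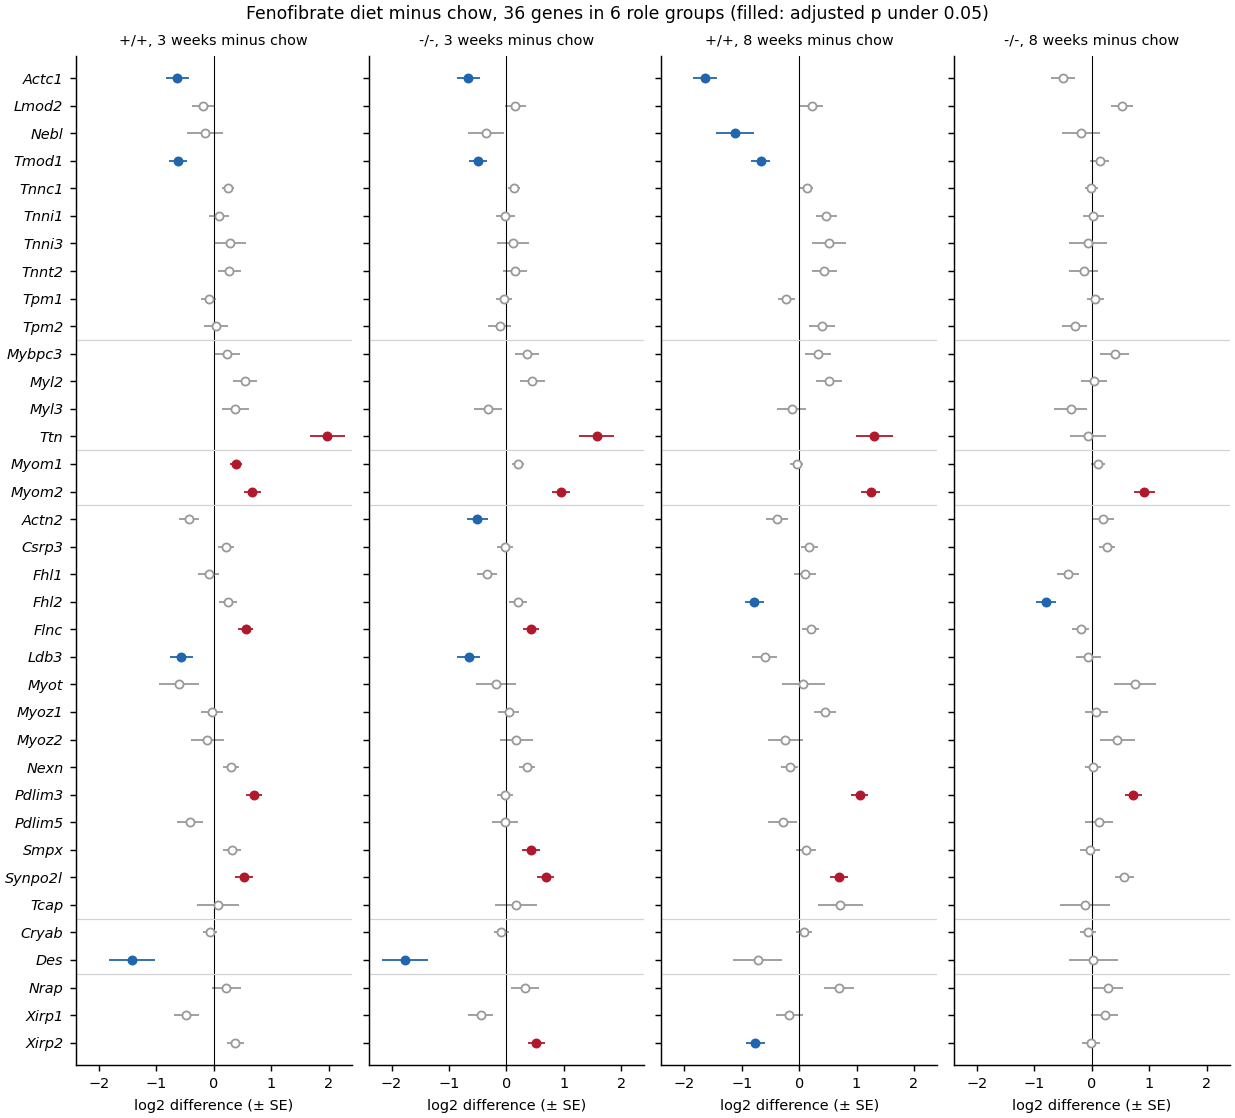
Log2 difference from chow (± SE) of each of the 36 genes, grouped by role, in 4 panels (MuRF1 +/+ and MuRF1 -/- at 3 and 8 weeks of fenofibrate); filled points have an adjusted p under 0.05. Ttn has the largest rise at 3 weeks in both genotypes and Des the largest fall, and few points are filled at 8 weeks in MuRF1 -/-.

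Titin, the spring of the sarcomere and the largest protein of the heart, had the largest rise of the 36 genes at 3 weeks in both genotypes. In MuRF1 +/+ hearts Ttn was at -0.86, -0.28 and -0.70 on chow, at 1.26, 1.49, 1.26 and 1.46 after 3 weeks, and at -0.09, 1.57 and 0.61 after 8 weeks. Every treated heart lay above every chow heart, and the 8-week hearts were spread widely. The rise was 3.94-fold at 3 weeks (log2 1.98 ± 0.30, limma adjusted p = 0.000162) and 2.47-fold at 8 weeks (1.31 ± 0.32, adjusted p = 0.0125). Ttn in MuRF1 -/- hearts was at 0.74, -0.43 and -0.44 on chow, 1.61, 1.27, 1.43 and 1.78 at 3 weeks, and -0.14, -0.10 and -0.10 at 8 weeks. There the 3-week hearts lay above all others, and the 8-week hearts lay within the range of chow. The 3-week rise was 2.97-fold (1.57 ± 0.30, adjusted p = 0.000955), and 8-week hearts were 3.11-fold below 3-week hearts (-1.64 ± 0.30, adjusted p = 0.000544). Against chow the 8-week difference in MuRF1 -/- was -0.07 (95% interval -0.74 to 0.61). The 8-week call in MuRF1 +/+ was lost without 8-week replicate 2 (0.87, adjusted p = 0.0724), chow replicate 1 (1.18, 0.0574) or, of chow, replicate 3 (1.26, 0.0601), and in the series matrix (0.95), and within 2 slides the difference was 0.19 and 2.26. At 3 weeks the within-slide differences were 1.77 to 2.12 in MuRF1 +/+ and 0.87 to 1.87 in MuRF1 -/-.

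Ttn has 9 probes on the array, which gives its change more than 1 reading. At 3 weeks the 9 probes rose by 0.61 to 2.08 in MuRF1 +/+ and by 0.48 to 1.75 in MuRF1 -/-, and 9 of 9 passed in each in a fit of all probes. At 8 weeks in MuRF1 +/+ they differed by 0.04 to 1.73 and 4 passed, while in MuRF1 -/- they differed by -0.21 to 0.26 and 0 passed. Between 8 and 3 weeks in MuRF1 -/- they differed by -1.94 to -0.22, and 8 of 9 passed. Where each probe lies along the transcript was not used here.

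**Figure D2:**
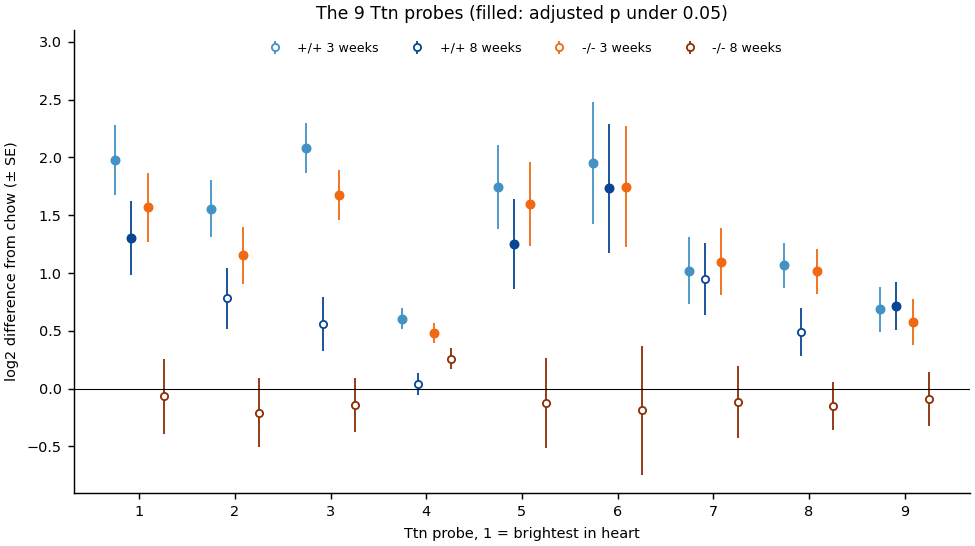
Log2 difference from chow (± SE) at each of the 9 Ttn probes, ordered from the brightest in heart, for MuRF1 +/+ and MuRF1 -/- at 3 and 8 weeks; filled points have an adjusted p under 0.05 in a fit of all probes. The 3-week points of both genotypes are filled at 9 of 9 probes, and the 8-week points of MuRF1 -/- at 0 of 9.

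The other genes of the thick filament did not pass. Myl2 and Myl3, the ventricular myosin light chains, differed from chow by 0.54 and 0.38 at 3 weeks in MuRF1 +/+ and by 0.45 and -0.32 in MuRF1 -/-. Mybpc3, cardiac myosin-binding protein C, differed by 0.24 to 0.40 in the 4 comparisons with chow. Myl2 was 4.95 on replicate 4 of the 3-week MuRF1 -/- group and 4.11 to 4.17 on the other 3 arrays of that group. A dimmer Myl3 probe fell at 3 weeks in MuRF1 -/- (-0.69 ± 0.18).

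At the M-band, Myom2, the M-protein that cross-links thick filaments, was higher after fenofibrate in all 4 comparisons with chow. In MuRF1 +/+ it was at 1.78, 1.77 and 1.69 on chow, 2.59, 2.35, 2.26 and 2.47 at 3 weeks, and 2.69, 2.99 and 3.28 at 8 weeks, without overlap between the groups. The 8-week rise was 2.37-fold (1.24 ± 0.16, limma adjusted p = 0.000191) and the 3-week rise 1.59-fold (0.67 ± 0.15, adjusted p = 0.00401). The MuRF1 -/- hearts were at 1.36, 1.86 and 1.67 on chow, 2.37, 2.60, 2.55 and 2.78 at 3 weeks, and 2.54 and 2.55 at 8 weeks, where the spot of replicate 3 was marked as an outlier and left out. Treated hearts again lay above all chow hearts, by 0.95 ± 0.15 at 3 weeks (adjusted p = 0.000261) and 0.92 ± 0.18 at 8 weeks (adjusted p = 0.0152). The latter call was lost without 8-week replicate 1 (0.92, adjusted p = 0.0928) or 2 (0.91, 0.0965) or, of chow, replicate 1 (0.78, 0.0753). In MuRF1 +/+ the gain from 3 to 8 weeks (0.57 ± 0.15, adjusted p = 0.0149) was lost without 8-week replicate 3 (0.42, 0.0839), and in the authors' series matrix the difference was -0.01. That matrix also gave 0.62 at 3 and at 8 weeks in MuRF1 +/+ with no call.

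Myom1, myomesin, the other M-band cross-linker, rose only slightly at 3 weeks in MuRF1 +/+ (0.39 ± 0.11, limma adjusted p = 0.0145). Its chow hearts were at 1.67, 1.72 and 1.95 and its 3-week hearts at 2.22, 2.17, 2.07 and 2.23, all higher. At 8 weeks it was at 1.76, 1.62 and 1.83, below every 3-week heart (-0.43 ± 0.11, adjusted p = 0.0104). The 3-week call was lost without chow replicate 1 (0.33, adjusted p = 0.0782) or 2 (0.36, 0.0564). In MuRF1 -/- Myom1 differed by 0.20 at 3 weeks and did not pass. Of its 3 probes the dimmer ones rose more at 3 weeks, by 0.61 and 1.15 in MuRF1 +/+ and by 1.08 and 1.47 in MuRF1 -/-.

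Among thin filament genes, 2 of 10 fell at 3 weeks in each genotype and 3 of 10 fell at 8 weeks in MuRF1 +/+, where 12.3%, 12.1% and 8.72% of all genes fell. None of the 10 rose against chow, and the tropomyosins, the troponins and Lmod2 did not pass there. Actc1, cardiac alpha-actin, the main actin of the heart's thin filament, had the largest fall of the 36 genes at 8 weeks in MuRF1 +/+. It was at 2.08, 1.98 and 2.17 on chow, 1.51, 1.56, 1.33 and 1.37 at 3 weeks, and 0.56, 0.40 and 0.35 at 8 weeks. The 3 groups did not overlap and were ordered by time on the diet. The fall was 1.55-fold at 3 weeks (-0.64 ± 0.20, limma adjusted p = 0.0245) and 3.12-fold at 8 weeks (-1.64 ± 0.21, adjusted p = 0.000111), and 8-week hearts were 2.01-fold below 3-week hearts (-1.004 ± 0.20, adjusted p = 0.00182). Within 2 slides the 8-week difference was -1.77 and -1.42. The 3-week calls of both genotypes were lost in the series matrix (-0.65 and -0.49), and that of MuRF1 +/+ also with the slide as a block (-0.61).

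Actc1 in MuRF1 -/- hearts was at 1.94, 2.11 and 1.60 on chow, 1.55, 1.52, 1.09 and 0.72 at 3 weeks, and 1.65, 0.89 and 1.58 at 8 weeks. The 3-week hearts lay below all chow hearts (-0.66 ± 0.20, limma adjusted p = 0.0182), while 1 of the 8-week hearts lay within the range of chow and that comparison did not pass (-0.51, 95% interval -0.95 to -0.07). On the 1 slide with both groups, which held replicate 2 of each, the 8-week difference was -1.21. These 2 hearts also differed in the mean of the tested sex-linked genes, at -1.10 (8 weeks) and -0.32 (chow). The other 8-week hearts were at -0.09 and -0.30, and the part of sex in the values of Actc1 was not tested. Calls at 3 weeks were lost in MuRF1 -/- without chow replicate 1 (-0.63, adjusted p = 0.0540) or 2 (-0.55, 0.0925). In MuRF1 +/+ they were lost without 3-week replicate 3 (-0.60, 0.0590) or 4 (-0.61, 0.0578) or, of chow, replicate 1 (-0.64, 0.0687) or 3 (-0.59, 0.0988).

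Tmod1, tropomodulin, which caps the pointed ends of thin filaments, was lower at 3 weeks in both genotypes. Its levels in MuRF1 +/+ were 1.85, 1.65 and 1.63 on chow, 1.17, 1.19, 0.93 and 1.04 at 3 weeks, and 1.40, 0.75 and 0.96 at 8 weeks, so that every treated heart lay below every chow heart. The differences were -0.63 ± 0.16 (limma adjusted p = 0.00738) and -0.67 ± 0.17 (adjusted p = 0.0138). Levels in MuRF1 -/- hearts were 1.14, 1.60 and 1.33 on chow, 0.91, 1.13, 0.95 and 0.48 at 3 weeks, and 1.38, 1.46 and 1.64 at 8 weeks. The 3-week fall there was small (-0.49 ± 0.16, adjusted p = 0.0276), and the 8-week hearts were above the 3-week hearts (0.62 ± 0.16, adjusted p = 0.00563) and within 0.13 of chow. The 8-week call in MuRF1 +/+ was lost without 8-week replicate 2 (-0.53, adjusted p = 0.0758) or, of chow, replicate 1 (-0.60, 0.0630). The 3-week call in MuRF1 -/- was lost without 3-week replicate 4 (-0.36, 0.0757), chow replicate 2 (-0.37, 0.150) or, of chow, replicate 3 (-0.50, 0.0717). A dimmer Tmod1 probe had the same signs against chow at -0.81 and -1.31 in MuRF1 +/+ and -0.51 at 3 weeks in MuRF1 -/-.

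Nebl, nebulette, a thin filament protein anchored at the Z-disc, fell at 8 weeks in MuRF1 +/+ (-1.11 ± 0.33, limma adjusted p = 0.0326), largely through 1 heart. Its 8-week values were 1.81, 0.44 and 2.14, against 2.58, 2.35 and 2.81 on chow and 2.68, 2.55, 2.31 and 2.17 at 3 weeks. Without replicate 2 the difference from chow was -0.60 (adjusted p = 0.197), and that from 3 weeks fell from -0.96 to -0.45 (0.229). Calls were also lost without chow replicate 1 (-1.11, 0.0833) or 3 (-1.001, 0.134), and, against 3 weeks, without 3-week replicate 1 (-0.88, 0.105), 2 (-0.92, 0.0816) or 3 (-1.003, 0.0582). At 8 weeks in MuRF1 +/+ the other Nebl probes differed from chow by -0.08 and 0.09 and from 3 weeks by -0.32 and -0.06, none past the threshold, and with the mean of all probes the difference from chow was -0.37 with no call (adjusted p = 0.0792), while that from 3 weeks was -0.45 and kept its call. Nebl in MuRF1 -/- was at 2.05 to 2.65 on chow and 2.02 to 2.24 at 8 weeks.

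In the Z-disc, 3 of 15 genes rose and 1 fell at 3 weeks in MuRF1 +/+, and 3 rose and 2 fell in MuRF1 -/-, near the 24.3% and 26.4% of all genes past the threshold in either direction. Pdlim3, the actinin-associated LIM protein, rose at 3 and 8 weeks in MuRF1 +/+ and at 8 weeks in MuRF1 -/-. In MuRF1 +/+ it was at -2.24, -2.42 and -2.60 on chow, -1.39, -1.92, -1.81 and -1.76 at 3 weeks, and -1.09, -1.56 and -1.46 at 8 weeks, with chow below every treated heart. The rises were 1.62-fold (0.70 ± 0.14, limma adjusted p = 0.0015) and 2.07-fold (1.05 ± 0.15, adjusted p = 0.000334). Without MuRF1 the gene was at -2.03, -1.96 and -1.83 on chow, -1.87, -1.84, -2.13 and -1.99 at 3 weeks, and -1.23, -1.05 and -1.38 at 8 weeks. Here the 3-week hearts overlapped chow (-0.02), whereas the 8-week hearts lay above both (0.72 ± 0.15 over chow, adjusted p = 0.0181, and 0.74 ± 0.14 over 3 weeks, adjusted p = 0.000706).

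On chow itself Pdlim3 was higher in MuRF1 -/- by 0.48 (95% interval 0.17 to 0.80), a difference that did not pass over all genes. The difference of the 3-week responses was -0.72 (95% interval -1.13 to -0.30) and did not pass either (limma adjusted p = 1). The second Pdlim3 probe gave 0.71, 0.90, 0.00 and 0.68 in the 4 comparisons with chow. The 8-week call in MuRF1 -/- was lost without 8-week replicate 1 (0.72, adjusted p = 0.0649) or 2 (0.63, 0.0965) or, of chow, replicate 1 (0.68, 0.0843) or 2 (0.71, 0.0614).

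Fhl2, a LIM-domain protein that binds titin, fell at 8 weeks in both genotypes, while its 3-week differences of 0.25 and 0.20 did not pass. Its levels in MuRF1 +/+ were 4.70, 4.56 and 4.82 on chow, 4.94, 4.77, 5.03 and 5.04 at 3 weeks, and 3.69, 4.00 and 4.05 at 8 weeks. Its values in MuRF1 -/- were 4.94, 4.37 and 4.87 on chow, 4.82, 4.74, 4.82 and 5.32 at 3 weeks, and 3.99, 4.02 and 3.77 at 8 weeks. All 6 hearts at 8 weeks lay below all 14 other hearts. Against chow the fall was 1.72-fold in MuRF1 +/+ (-0.78 ± 0.17, limma adjusted p = 0.00613) and 1.74-fold in MuRF1 -/- (-0.80 ± 0.17, adjusted p = 0.0191). Against 3 weeks it was 2.04-fold (-1.03 ± 0.16, adjusted p = 0.000284) and 2.00-fold (-1.002 ± 0.16, adjusted p = 0.000145). The genotypes differed by 0.01 at 8 weeks (95% interval -0.34 to 0.37). Ddx3y ranged from -0.68 to 1.47 in the 8-week MuRF1 -/- hearts, and the part of sex in the values of Fhl2 was not tested. The call against chow in MuRF1 -/- was lost without 8-week replicate 1 (-0.83, adjusted p = 0.0596) or 3 (-0.72, 0.117) or, of chow, replicate 1 (-0.69, 0.107) or 3 (-0.73, 0.0810), and on the 1 slide with both groups the difference was -0.35. With a prior variance that follows the mean log ratio in place of the mean intensity, none of these 4 Fhl2 calls passed.

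Synpo2l, a Z-disc protein of the synaptopodin family, was higher after fenofibrate at the tested probe. In MuRF1 +/+ it was at 0.09, 0.23 and 0.08 on chow, 0.61, 0.66, 0.49 and 0.89 at 3 weeks, and 1.00, 0.79 and 0.70 at 8 weeks. Chow hearts were lowest without overlap (0.53 ± 0.15, limma adjusted p = 0.0166, and 0.69 ± 0.16, adjusted p = 0.00954). Hearts lacking MuRF1 had levels of 0.35, 0.09 and 0.10 on chow, 1.17, 0.61, 0.64 and 1.04 at 3 weeks and 1.02, 0.61 and 0.62 at 8 weeks, and only the 3-week rise passed (0.68 ± 0.15, adjusted p = 0.00289, against 0.57 at 8 weeks). A dimmer probe of Synpo2l went the other way at 3 weeks in MuRF1 +/+ (-0.33 ± 0.12, past the threshold), and with the mean of both probes the 3 differences were 0.10, 0.32 and 0.25 with no call. Calls at the tested probe were lost in the series matrix in MuRF1 +/+ (0.54 and 0.37), at 3 weeks there without 3-week replicate 4 (0.45, 0.0576), chow replicate 1 (0.51, 0.0591) or 3 (0.50, 0.0714), and at 8 weeks without chow replicate 3 (0.67, 0.0508).

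Flnc, filamin C, which links actin at the Z-disc and the membrane, was higher at 3 weeks at the tested probe. Its levels in MuRF1 +/+ were -0.53, -0.25 and -0.40 on chow and 0.08, 0.09, 0.22 and 0.25 at 3 weeks, all higher (0.55 ± 0.14, limma adjusted p = 0.00635). On MuRF1 -/- arrays it stood at 0.10, -0.25 and -0.53 on chow, 0.34, 0.12, 0.04 and 0.31 at 3 weeks, where the groups overlapped (0.43 ± 0.14, adjusted p = 0.0251), and -0.38, -0.36 and -0.53 at 8 weeks, below 3 weeks (-0.62 ± 0.14, adjusted p = 0.00199). The call against chow in MuRF1 -/- was lost without 3-week replicate 1 (0.39, 0.0707) or 4 (0.39, 0.0506) or, of chow, replicate 2 (0.42, 0.0726) or 3 (0.28, 0.186). A dimmer Flnc probe differed by -0.37 and -0.36 at 3 weeks without passing, and the mean of all probes gave differences of 0.07 and 0.00. Between 8 and 3 weeks in MuRF1 -/- that dimmer probe passed with the opposite sign (0.44), and the mean of all probes gave -0.07 with no call (adjusted p = 0.563).

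Actn2 and Ldb3, sarcomeric alpha-actinin and its partner Cypher, had calls at 3 weeks, Actn2 in MuRF1 -/- and Ldb3 in both genotypes. Actn2 was at 0.86, 1.09 and 0.83 on chow in MuRF1 -/-, 0.57, 0.47, 0.45 and 0.17 at 3 weeks, and 1.13, 1.15 and 1.07 at 8 weeks. The 3-week hearts lay below the rest (-0.51 ± 0.18 against chow, limma adjusted p = 0.0428), and the 8-week hearts lay 0.70 ± 0.18 above them (adjusted p = 0.00619). In MuRF1 +/+ Actn2 differed from chow by -0.43 at 3 weeks and did not pass. The fall in MuRF1 -/- lost its call without 3-week replicate 2 (-0.53, 0.0584), 3 (-0.52, 0.0655) or 4 (-0.43, 0.0954) or, of chow, replicate 1 (-0.54, 0.0691), 2 (-0.43, 0.160) or 3 (-0.56, 0.0780).

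Ldb3 was at 1.13, 1.03 and 1.29 on chow and 0.54, 0.63, 0.59 and 0.59 at 3 weeks in MuRF1 +/+, without overlap (-0.56 ± 0.20, limma adjusted p = 0.0478). The MuRF1 -/- hearts were at 1.13, 1.11 and 1.27 on chow, 0.71, 0.74, 0.65 and -0.05 at 3 weeks (-0.66 ± 0.20, adjusted p = 0.021), and 1.16, 1.03 and 1.14 at 8 weeks, above 3 weeks (0.60 ± 0.20, adjusted p = 0.0296). A dimmer Ldb3 probe fell by 0.79, 0.65 and 1.00 in the first 3 comparisons with chow, all past the threshold, while another gave -0.29 and -0.30 at 3 weeks and did not pass. Between 8 and 3 weeks in MuRF1 -/- these probes gave 0.94 and 0.52 and both passed. In MuRF1 +/+ the call was lost without any 1 of the 7 arrays, with adjusted p from 0.0673 without chow replicate 2 to 0.174 without chow replicate 3. The MuRF1 -/- call was lost without 3-week replicate 4 (-0.47, 0.0576) or, of chow, replicate 3 (-0.61, 0.0844). Against 8 weeks it was lost without 3-week replicate 4 (0.41, 0.0848) or 8-week replicate 1 (0.57, 0.0840), 2 (0.64, 0.0560) or 3 (0.58, 0.0856).

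The remaining Z-disc calls were weak. Smpx, the small muscle protein of the costamere, was higher at 3 weeks in MuRF1 -/- (by 0.43, limma adjusted p = 0.0494), at 1.48, 1.44, 1.46 and 2.05 against 1.11, 1.26 and 1.18, and lower again at 8 weeks (-0.46, adjusted p = 0.0309). Every 3-week heart lay above every chow heart, but without replicate 4 the difference was 0.28 (0.129), and the call was lost without any other array except 3-week replicate 2 (up to 0.128). The 8-week call was lost without 3-week replicate 4 (-0.31, 0.0830) or any 8-week replicate (up to 0.0977). Nexn, the actin-binding nexilin, was lower at 8 than at 3 weeks in MuRF1 +/+ (-0.47 ± 0.13, adjusted p = 0.0213) with overlapping groups of 1.499, 1.35 and 1.94 against 2.15, 1.93, 2.16 and 2.02. That call was lost without 3-week replicate 1 (-0.44, 0.0602) or 3 (-0.44, 0.0552) or 8-week replicate 1 (-0.42, 0.0591) or 2 (-0.35, 0.0812). Myot, myotilin, was higher at 8 than at 3 weeks in MuRF1 -/- (0.93 ± 0.35, adjusted p = 0.049) with overlapping groups, and the call was lost without 3-week replicate 2, 3 or 4 or 8-week replicate 1 or 3, with differences down to 0.72 (up to 0.194).

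Des, desmin, the intermediate filament that ties Z-discs to one another, had the largest fall of the 36 genes at 3 weeks. In MuRF1 +/+ it was at 1.70, 1.53 and 1.64 on chow and at -0.06, 0.51, 0.32 and 0.02 at 3 weeks, far below (2.69-fold, -1.43 ± 0.40, limma adjusted p = 0.0141). At 8 weeks it was at 1.78, -0.60 and 1.52, so that 2 of 3 hearts were near chow and the array that stood apart was low. Levels in MuRF1 -/- hearts were 1.74, 1.70 and 1.67 on chow, 0.11, 0.46, 0.17 and -0.99 at 3 weeks and 1.77, 1.78 and 1.64 at 8 weeks. Again only the 3-week hearts were low, 3.40-fold below chow (-1.77 ± 0.40, adjusted p = 0.00325) and 3.46-fold below 8 weeks (1.79 ± 0.40, adjusted p = 0.00231). Against chow at 8 weeks the difference was 0.03 (95% interval -0.86 to 0.92). Within 2 slides the 3-week difference was -1.76 and -1.02 in MuRF1 +/+, and within 3 slides it was -1.63 to -1.24 in MuRF1 -/-. The call in MuRF1 +/+ was lost without chow replicate 1 (-1.39, 0.0503) or 3 (-1.42, 0.0514). Cryab, alpha B-crystallin, the chaperone of desmin, differed by -0.09 to 0.09 against chow at its bright probe, while a dim probe fell by 0.91, 0.96 and 0.91 in the 3 comparisons other than 8 weeks in MuRF1 -/-.

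Xirp1 and Xirp2 encode the Xin-repeat proteins of the intercalated disc. Xirp2 was lowest at 8 weeks in MuRF1 +/+: it was at 1.68, 2.06 and 1.69 on chow, 2.21, 2.34, 2.06 and 2.13 at 3 weeks, and 1.37, 0.77 and 1.01 at 8 weeks. The 8-week hearts lay below all others, 1.69-fold under chow (-0.76 ± 0.16, limma adjusted p = 0.00475) and 2.20-fold under 3 weeks (-1.14 ± 0.15, adjusted p = 7.22e-05). Without MuRF1 the gene was at 1.89, 1.53 and 1.71 on chow, 2.42, 2.21, 2.34 and 1.95 at 3 weeks (0.52 ± 0.15 over chow, adjusted p = 0.0141), and 1.64, 1.60 and 1.86 at 8 weeks, under 3 weeks (-0.53, adjusted p = 0.0105) and within the range of chow. These 2 calls were lost without chow replicate 2 (0.43, 0.0790) and without 8-week replicate 2 (-0.48, 0.0512), and with the mean of all probes both were lost (0.35 and -0.30). Of the other Xirp2 probes, which did not pass in these comparisons, 1 gave 0.05 and -0.12 and 1 gave 0.46 and -0.26. Xirp1 differed by -0.48 and -0.45 at 3 weeks without passing, and in MuRF1 -/- it was higher at 8 than at 3 weeks, at 1.37, 1.09 and 1.37 against 0.84, 0.80, 0.74 and 0.05 (0.67 ± 0.22, adjusted p = 0.0249). The groups did not overlap, but the call was lost without 3-week replicate 4 (0.48, 0.0723) or 8-week replicate 1 (0.62, 0.0817) or 3 (0.62, 0.0882).

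**Figure D3:**
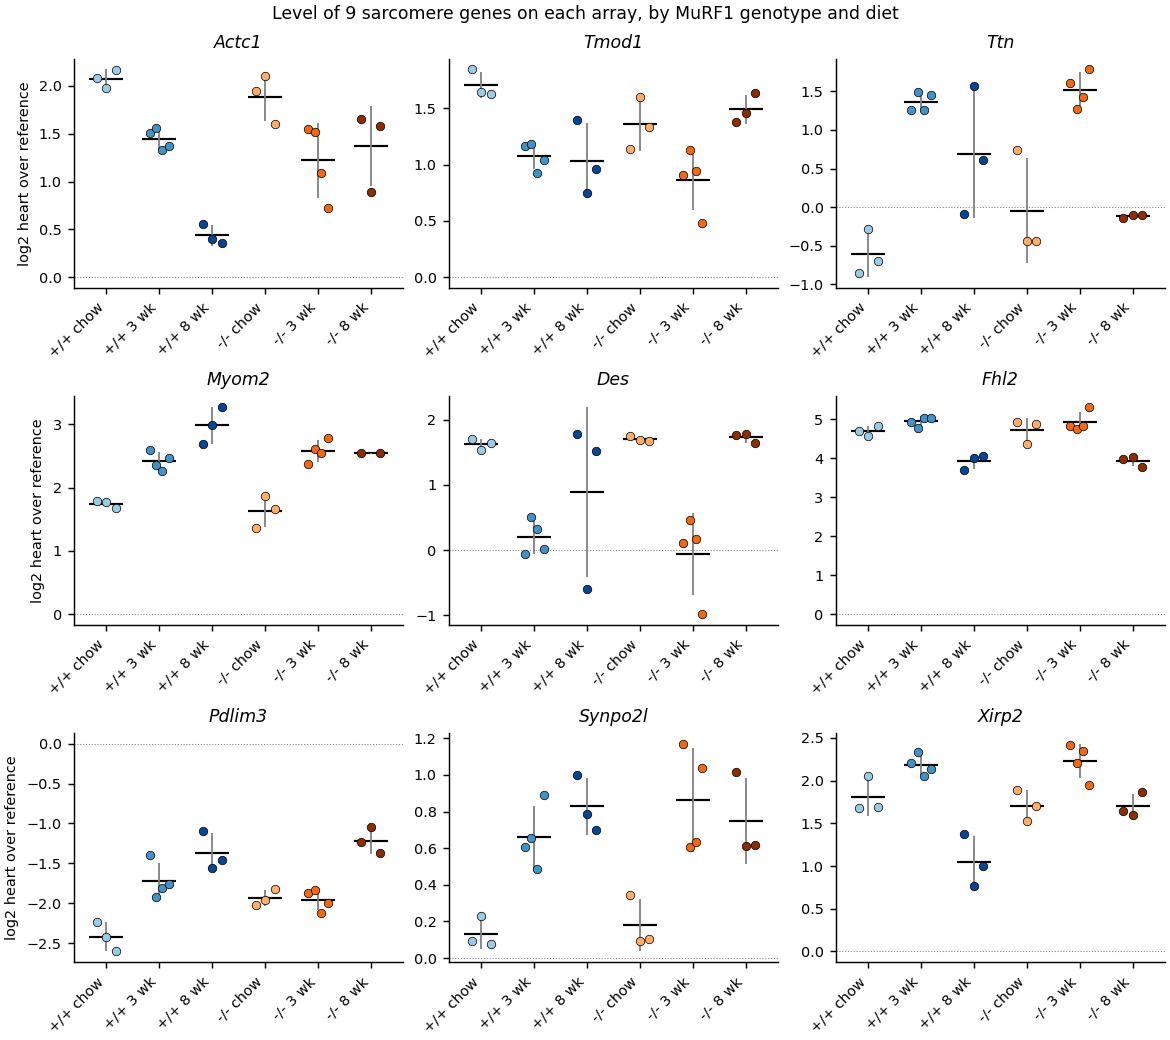
Log2 ratio of heart over the newborn pool on each array (points) for Actc1, Tmod1, Ttn, Myom2, Des, Fhl2, Pdlim3, Synpo2l and Xirp2 in the 6 groups, with the mean (horizontal bar) and 1 SD (vertical line). Des is low in the 3-week groups and on 1 array at 8 weeks in MuRF1 +/+, Fhl2 is low in both 8-week groups, and Actc1 is lowest at 8 weeks in MuRF1 +/+.

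The 18 genes without a call included the troponins Tnnt2, Tnni3, Tnni1 and Tnnc1, the tropomyosins Tpm1 and Tpm2, Csrp3 and Tcap of the titin anchor, Nrap and the calsarcins Myoz1 and Myoz2. Their differences from chow lay between -0.41 and 0.54 at 3 weeks and -0.29 and 0.72 at 8 weeks in MuRF1 +/+, and between -0.34 and 0.45 and -0.42 and 0.53 in MuRF1 -/-. The largest, 0.72 for Tcap (telethonin, the titin cap), came from 5.33 on replicate 2 of the 8-week MuRF1 +/+ group beside 3.17 and 3.80. Tcap on chow was at 3.47, 3.19 and 3.48. Nrap was at 3.36 on the same array beside 1.93 and 2.02, and Myoz2 was low there, at 0.59 beside 2.18 and 1.75. Both arrays that stood apart were high for Tcap, Mybpc3, Tnni3 and Myl2 within their groups and low for Myoz2, Des and Ldb3.

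Dim probes of Tnnt2, Myoz2 and Nexn rose at 3 weeks where the bright probe did not pass. The dim Tnnt2 probe rose by 0.99 ± 0.23 and 1.49 ± 0.23 (MuRF1 +/+ and MuRF1 -/-), against 0.27 and 0.15 at the bright probe. The dim Myoz2 probe rose by 1.29 ± 0.15 and 1.34 ± 0.15, against -0.11 and 0.17, and that of Nexn by 0.71 ± 0.17 and 1.01 ± 0.17, against 0.30 and 0.36. On each array 34.0% to 51.9% of heart signals were well above background, with 40.8% to 51.9% on the 3-week arrays other than MuRF1 -/- replicate 4 (34.3%), and 38.8% to 44.2% on chow. The part of this in the dim-probe rises was not tested. Pdlim5, a Z-disc LIM protein, did not pass at its bright probe (-0.29 at 8 weeks in MuRF1 +/+) while 2 other probes rose by 1.01 and 0.80 there. Of the 52 passing pairs 30 had another measured probe, which had the opposite sign in 7 and passed with the opposite sign in 2.

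Relative to the newborn pool, 24 of the 36 genes were above it on every array, 6 were below it on every array and 6 crossed it. The ratio was highest for Mybpc3 (mean of 20 arrays 6.66), Tnni3, the adult cardiac troponin I (5.62), Fhl2 (4.56) and Myl2 (4.07). Below the pool were Myoz1 (-2.72), Fhl1 (-2.68), Tpm2 (-2.54), Tnni1, the slow skeletal and fetal troponin I (-2.05), Pdlim3 (-1.78) and Myot (-1.60). These are ratios for each gene and do not rank transcripts by abundance.

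**Figure D4:**
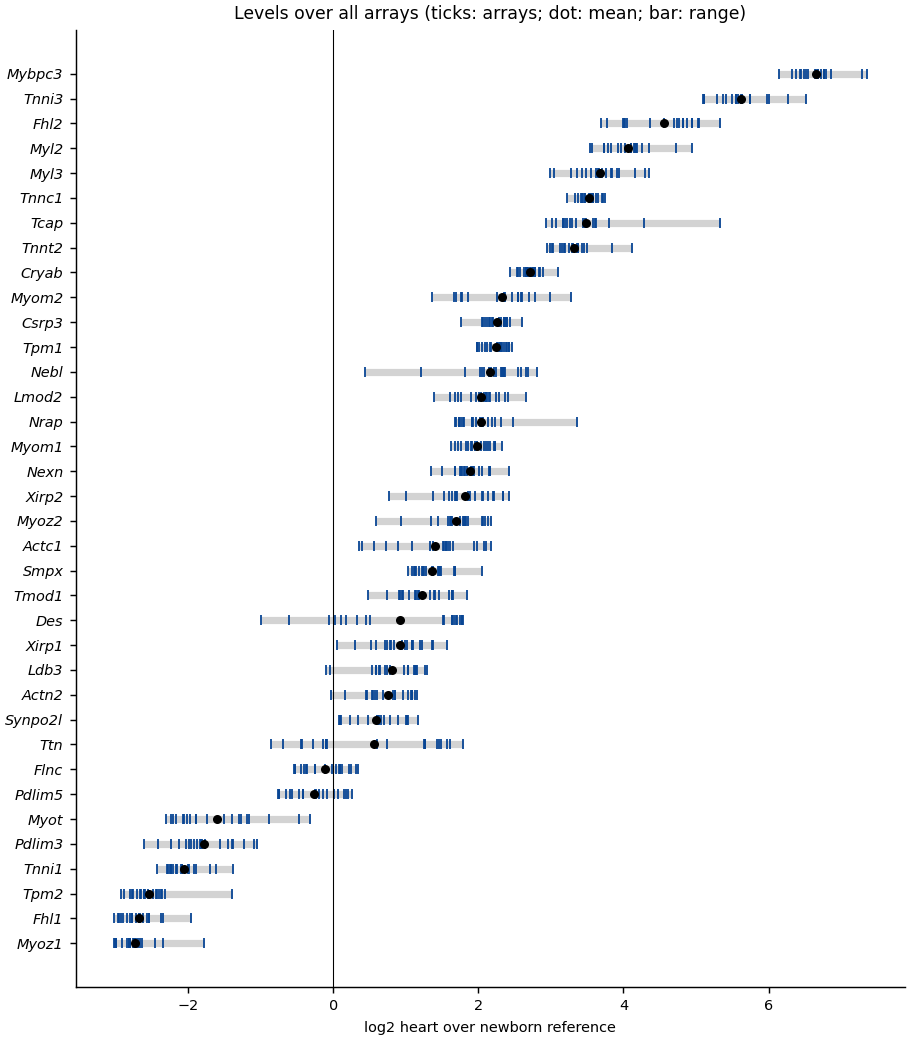
Log2 ratio of heart over the newborn pool for the 36 genes on each of the 20 arrays (ticks), with the mean (dot) and the range (bar). Mybpc3 and Tnni3 are highest, 6 genes lie below 0 on every array, and Ttn and Des have wide ranges around 0 or above.

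Between genotypes, none of the 36 genes passed the threshold in any of 4 comparisons. The count was 0 on chow, at 3 weeks, at 8 weeks and averaged over diets, where 0.0893%, 0.398%, 0.0893% and 0.192% of all genes passed (limma). An unadjusted limma p under 0.05 was found for 2, 0, 11 and 3 of the 36, against 465, 775, 3193 and 889 of all 14556 genes. On chow and at 3 weeks the 95% interval of the difference lay within 1 log2 unit for 34 of 36 genes, at 8 weeks for 26. Half-widths had a median of 0.41 on chow, 0.36 at 3 weeks and 0.41 at 8 weeks.

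At 8 weeks the values differed most. Actc1 was at 1.65, 0.89 and 1.58 in MuRF1 -/- against 0.56, 0.40 and 0.35 in MuRF1 +/+, without overlap, a difference of 0.94 (95% interval 0.50 to 1.38) with a limma adjusted p of 0.0692. Xirp2 was higher by 0.65 (0.32 to 0.98, adjusted p = 0.0698), also without overlap, and Tmod1 by 0.46 (0.10 to 0.81). Ttn was lower by 0.81 (log2 -0.81, -1.48 to -0.13). Groups did not overlap at 8 weeks for 7 of the 36 genes, against 19.4% of all genes. Without replicate 1 of the 8-week MuRF1 +/+ group, 14 of the 36 genes passed, as did 21.3% of all genes, and without replicate 2 of the 8-week MuRF1 -/- group 1 did, with 0.151% of all genes. Ddx3y also differed between these groups, with means of -0.60 (MuRF1 +/+) and 0.70 (MuRF1 -/-). By replicate, the mean of the tested sex-linked genes was -1.14, -0.65 and -0.77 in MuRF1 +/+ and -0.09, -1.10 and -0.30 in MuRF1 -/-. The MuRF1 -/- heart at -1.10 was also the one with Actc1 at 0.89. The part of sex in these genotype differences was not tested.

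The difference of the diet responses between genotypes passed for 0 of the 36 genes at 3 and at 8 weeks (0% and 0.00687% of all genes by limma). At an unadjusted limma p under 0.05 there were 1 and 6 of the 36, against 357 and 2446 of all 14556 genes. At 8 weeks it was 1.13 for Actc1 (95% interval 0.51 to 1.75), -1.37 for Ttn (-2.33 to -0.42), 0.81 for Tmod1 (0.31 to 1.31) and 0.75 for Xirp2 (0.28 to 1.22). So the fall of Actc1 and the rise of Ttn seen at 8 weeks in MuRF1 +/+ were not shown to differ between genotypes. Without replicate 1 of the 8-week MuRF1 +/+ group 5 of the 36 passed, as did 9.71% of all genes.

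**Figure D5:**
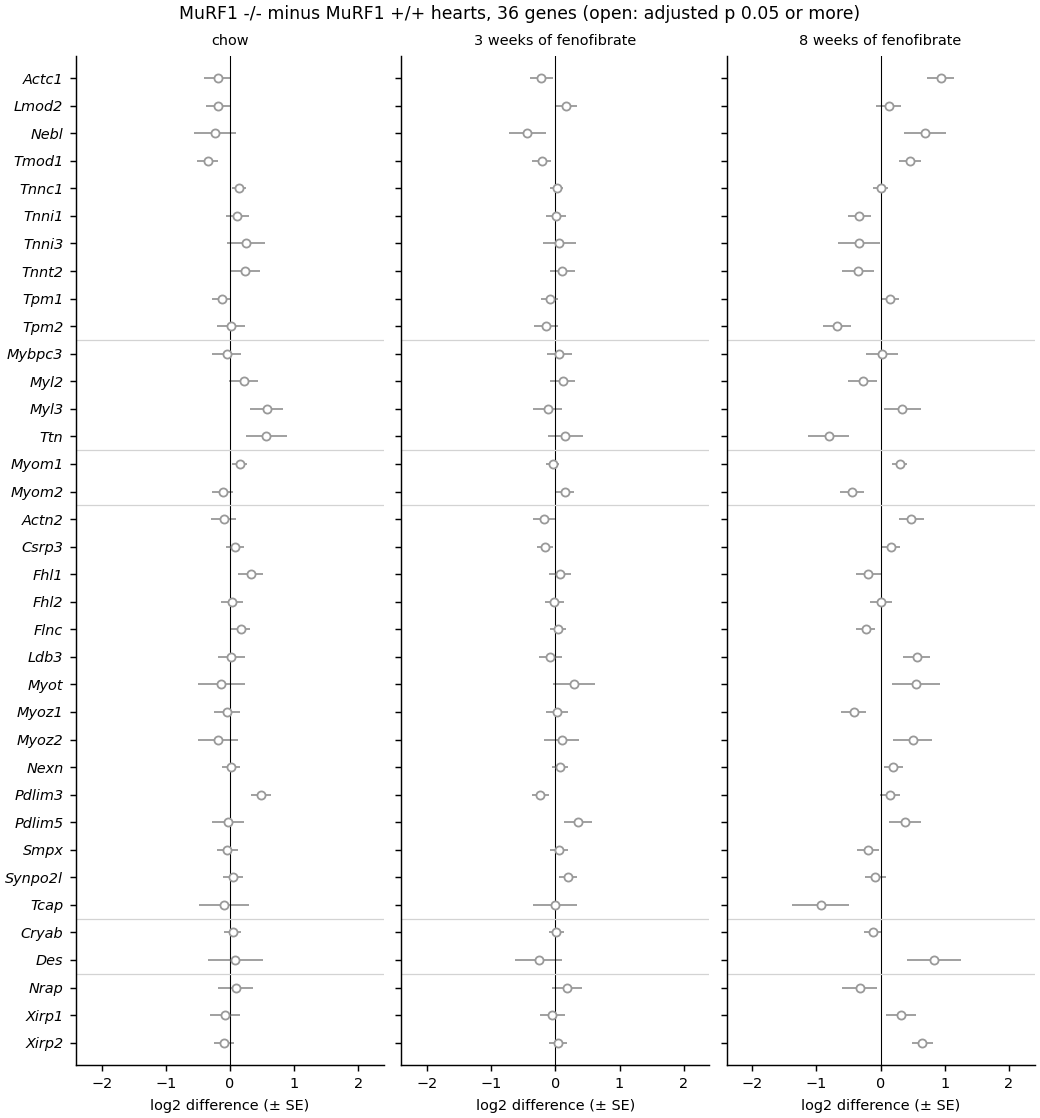
Log2 difference (± SE) of MuRF1 -/- minus MuRF1 +/+ hearts for the 36 genes, grouped by role, on chow and at 3 and 8 weeks of fenofibrate; all points are open, since none has an adjusted p under 0.05. The points spread most at 8 weeks, with Actc1 at 0.94 and Tcap at -0.93.

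Other genes of the sarcomere and of its surroundings were counted from 4 further lists, to be read against the shares of all genes that rose and fell: 12.0% and 12.3% at 3 weeks in MuRF1 +/+, 14.2% and 12.1% in MuRF1 -/-, 5.26% and 8.72% at 8 weeks in MuRF1 +/+, and 0.852% and 0.982% in MuRF1 -/-. Of 20 other filament genes, 3 rose and 2 fell at 3 weeks in MuRF1 +/+, and 3 and 1 in MuRF1 -/-. At 8 weeks 1 rose and 3 fell in MuRF1 +/+ and 0 and 1 in MuRF1 -/-. Myh7, the slow beta myosin heavy chain, fell at 3 weeks in MuRF1 +/+ (-1.30 ± 0.41, limma adjusted p = 0.028) and was higher than chow at 8 weeks (1.70 ± 0.44, adjusted p = 0.017). From 3 to 8 weeks it rose by 2.99 ± 0.41 in MuRF1 +/+ and by 1.93 ± 0.41 in MuRF1 -/-. Lmod3, a leiomodin that seeds actin filaments, was lower than chow at 8 weeks in both genotypes (-0.74 ± 0.15 and -0.73 ± 0.15).

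Of 23 other Z-disc and M-band genes, 0 rose and 5 fell at 3 weeks in each genotype, 2 fell at 8 weeks in MuRF1 +/+ and 0 moved at 8 weeks in MuRF1 -/- (medians -0.24, -0.28, -0.13 and 0.05). From 3 to 8 weeks in MuRF1 -/-, 9 were higher and 1 lower, where 13.5% and 18.0% of all genes were. Sex-linked transcripts differed there too. Hspb6, a small heat shock protein of muscle, fell by 1.36 ± 0.25 (MuRF1 +/+) and 1.10 ± 0.25 (MuRF1 -/-) at 3 weeks, and Hspb7 by 0.83 ± 0.22 and 0.99 ± 0.22. Both were higher again at 8 than at 3 weeks in MuRF1 -/- (by 1.13 ± 0.25 and 1.06 ± 0.22), as Des, Actn2 and Ldb3 were.

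Of 17 costamere genes, which couple the sarcomere to the membrane, 1 rose and 3 fell at 3 weeks in MuRF1 +/+ and 2 and 3 in MuRF1 -/-, with 0 and 1, and 0 and 0, at 8 weeks. Itga7, the laminin-binding integrin of muscle, fell by 0.82 ± 0.20 at 3 weeks in each genotype. Of 17 assembly and turnover genes, 2 rose and 2 fell at 3 weeks in MuRF1 +/+, 2 and 4 in MuRF1 -/-, 3 and 2 at 8 weeks in MuRF1 +/+ and 0 and 1 in MuRF1 -/-. Trim55, the related ligase MuRF2, rose at 3 weeks (1.17 ± 0.21 and 1.41 ± 0.21), and Srf, the factor that binds CArG boxes, fell in all 4 comparisons with chow (-0.67, -0.51, -0.68 and -0.50). Fbxo32, atrogin-1, rose by 1.16 ± 0.22 at 8 weeks in MuRF1 +/+ and by 0.64 ± 0.20 at 3 weeks in MuRF1 -/-.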

How the data were processed

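Each array was deposited as Agilent Feature Extraction output with spot intensity in both channels (mean signal and local background median, per the file headers), flags, and a log10 ratio that, per the file headers, Feature Extraction made after subtracting background and normalizing the dyes. The authors' series matrix holds log2 ratios of the same arrays; their making is not given in sources used here, and they served as an alternative. Per the labels' protocols, 50 ng of heart RNA was amplified. The protocol text and the channel labels name different dyes for the heart; the channel labels (Cy5) were followed, and low Trim63 in MuRF1 -/- hearts has the direction they give.

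Intensities were background-corrected (normexp, offset 50, leaving out spots whose background exceeded the signal by more than 50) and loess-normalized within arrays in limma 3.58.1 (R 4.3.3, package data.table, version 1.17.8). Outlier-marked spots were left out. Slides were told apart by their scan, which gives 5 sets of 4 arrays; in 2 of these sets the headers carry the same slide name and in 1 they carry none, so slide-block and within-slide values rest on the scan. Leaving spots out of the normexp fit and letting the prior variance follow the mean intensity were settled after the files were seen. Genes were tested if their heart signal was well above background on 3 or more arrays. The fit held 6 group means and 12 comparisons, with Benjamini-Hochberg adjustment over all tested genes at 0.05; it was tested on simulated data. Nothing in the labels says how the replicate hearts were obtained, so p-values measure the spread between these samples. The precision is limited by the number of arrays.

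All members could be named. Values by array were given for members past the threshold, full statistics for at most the 10 largest changes per comparison, and at most 4 genes per further list. The members and lists were chosen with earlier results of these data known.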

Additional observations from a re-analysis of the deposited data

Results flagged for a closer look

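In the 3-week MuRF1 -/- group, replicate 4 lay far from the other 3 hearts for 5 genes: Myl2 at 4.95, Ldb3 at -0.050, Fhl2 at 5.32, Xirp1 at 0.051 and Smpx at 2.05. In each, its gap to the nearest heart, as a share of the group's range, exceeded Dixon's critical value. In all, 72 sets of 4 values were examined, and chance marks about 1 in 20. This is 1 of the arrays that lay away from the rest over all genes.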

How the results depend on the processing

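Of the 52 passing pairs of a gene and a comparison, 52 kept call and direction under the stricter filter on dim probes and with outlier spots kept (chosen after seeing the data), 51 with a constant prior variance and 48 with a prior variance by mean log ratio (both chosen after seeing the data). The pairs kept were 50 without the 2 arrays that stood apart, 47 with Agilent's own log ratio, 46 with no filter, 44 with normexp on all spots, 43 with the replicate block, 41 with the mean of all probes, 36 with a slide block, 36 in the authors' matrix and 35 with only the groups compared. In the series matrix Myom2 turned from higher to lower between 3 and 8 weeks in MuRF1 +/+ (-0.0069); the cause was not tested. Counts of called genes (10, 9, 11 and 3 against chow for MuRF1 +/+ at 3 and 8 weeks and MuRF1 -/- at 3 and 8 weeks) moved with the setting, as did the shares of all genes. Those shares spanned 10.5% to 40.0%, 0.357% to 32.8%, 11.8% to 36.2% and 0.412% to 6.32% in the same order. Between 8 and 3 weeks they spanned 6.89% to 26.5% (MuRF1 +/+) and 14.2% to 41.1% (MuRF1 -/-). Between genotypes at 8 weeks they spanned 0.00687% to 21.3%, and for the difference of 8-week responses 0% to 9.71%. The counts were as follows, and a move in them is not set apart from the move in the shares of all genes. The series matrix gave 6 and 5 in MuRF1 +/+. In MuRF1 -/- at 3 weeks, normexp on all spots gave 7 and the slide block 7, and at 8 weeks the slide block gave 0 and Agilent's log ratio 5. Agilent's log ratio also gave 1 between genotypes at 8 weeks. With only the groups compared, the counts were 20, 1, 7 and 5, and 3 between 8 and 3 weeks in MuRF1 +/+ (7 in the report). Without the 2 arrays that stood apart they were 17 at 3 weeks in MuRF1 +/+, 5 at 8 weeks in MuRF1 -/- and 14 between 8 and 3 weeks in MuRF1 +/+. Leaving out 1 array of the groups compared at a time gave 5 to 9, 6 to 20, 5 to 10 and 0 to 2 against chow, 5 to 11 (MuRF1 +/+) and 8 to 13 (MuRF1 -/-) between 8 and 3 weeks, 0 to 14 between genotypes at 8 weeks and 0 to 5 for the difference of 8-week responses. Replicate numbers showed no pairing of the hearts. Between arrays of different groups, deviations from the group means had correlations of -0.58 to 0.45 for same-numbered arrays (median -0.03, 46 pairs). For differently numbered arrays they were -0.65 to 0.57 (median 0.009, 120 pairs). With the replicate block the counts were 8, 9, 8 and 4 against chow, and 9 and 8 between 8 and 3 weeks.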
